A study of Homo sapiens with 24 samples.

Results

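Chromatin accessibility was followed around 8 genes that estrogen is known to switch on in breast cancer cells, CA12, PDZK1, SIAH2, CTSD, CXCL12, ADCY9, AGR3 and MLPH. T47D is a luminal cell line from a human breast cancer. In ATAC-seq the Tn5 transposase cuts DNA that is not shielded by packed chromatin, so the count over a peak (a stretch where cuts pile up) measures how open that stretch is. A peak was assigned to a gene when its midpoint lay within 50 kb of the gene's interval on hg38, and accessibility played no part in that choice. This gave 211 of the 189403 peaks in the series: 36 at CA12, 31 at ADCY9, 30 at MLPH, 28 each at SIAH2 and AGR3, 25 at CTSD, 18 at CXCL12 and 15 at PDZK1. The midpoint was inside the gene for 80 of them and outside for 131. Counts were high enough to test 192 of the 211. The other 19 averaged 0.204 to 0.882 CPM (counts after each library is put on the same total).

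On the minus strand of hg38, CA12 spans 63321378 to 63381846 of chromosome 15, PDZK1 145670852 to 145707400 of chromosome 1, SIAH2 150741125 to 150763169 of chromosome 3 and CTSD 1752755 to 1763927 of chromosome 11. CXCL12 spans 44370165 to 44385097 of chromosome 10 and AGR3 16854681 to 16881983 of chromosome 7, on the same strand. MLPH lies on the plus strand of chromosome 2, from 237486410 to 237555322, and ADCY9 covers 3953387 to 4116442 of chromosome 16. Peak positions are those of the deposited table, which does not say whether starts count from 0 or 1.

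The estrogen receptor is a transcription factor that estradiol, its natural ligand, switches on. It binds DNA at estrogen response elements, often in enhancers far from the gene they serve, and brings in coactivators that open chromatin and raise transcription. Fulvestrant is an antagonist that also leads to degradation of the receptor, whereas raloxifene and tamoxifen are selective modulators that block it in breast cells and act as partial agonists in some other tissues. The 8 genes stand for different arms of the response: a pair of membrane enzymes (CA12 and ADCY9), a ubiquitin ligase (SIAH2), a lysosomal protease (CTSD), a secreted chemokine (CXCL12), a pair of adaptor proteins (PDZK1 and MLPH) and a relative of protein disulfide isomerases (AGR3).

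There were 6 groups of 4 libraries. Fulvestrant, raloxifene and tamoxifen were each given at 100 nM for 1 h to cells that had spent 1 day in complete medium with 10% serum, seeded at 500000 cells. Estradiol was given at 1 nM for 1 h to cells starved of hormone for 3 days in a medium free of phenol red with 10% charcoal-stripped serum, seeded at 330000 cells. The complete vehicle and starved vehicle groups received 0.1% DMSO for 1 h in those same cultures. Medium, days in it and seeding density differ together between the complete and starved cultures, so their parts in a difference cannot be told apart. For complete vehicle replicates 3 and 4, the titles name DMSO but the treatment label names fulvestrant. Whether replicates came from separate cultures is not in the labels. The p-values then reflect how far these libraries scatter, which may be technical.

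The promoters of AGR3, PDZK1, CXCL12 and CTSD are shown because peaks over them behaved differently: the AGR3 peak rose with estradiol and was also higher in complete than in starved vehicle, the PDZK1 and CXCL12 peaks passed the test between media and not with estradiol, and the CTSD peak passed the test in neither. Each is the RefSeq sequence on GRCh38.p14 reaching 250 bases before and 50 bases after the listed start, 5′ to 3′ on the gene's strand. Capitals mark the core motif that forms each arm of an estrogen response element (GGTCA, or TGACC on the other strand) and the GC box (GGGCGG, or CCGCCC on the other strand).
AGR3: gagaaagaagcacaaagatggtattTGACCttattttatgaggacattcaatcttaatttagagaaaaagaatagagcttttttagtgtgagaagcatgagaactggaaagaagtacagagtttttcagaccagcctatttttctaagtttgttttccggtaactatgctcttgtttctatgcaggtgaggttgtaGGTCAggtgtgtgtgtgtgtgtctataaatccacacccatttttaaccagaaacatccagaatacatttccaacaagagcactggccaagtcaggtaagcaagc
PDZK1: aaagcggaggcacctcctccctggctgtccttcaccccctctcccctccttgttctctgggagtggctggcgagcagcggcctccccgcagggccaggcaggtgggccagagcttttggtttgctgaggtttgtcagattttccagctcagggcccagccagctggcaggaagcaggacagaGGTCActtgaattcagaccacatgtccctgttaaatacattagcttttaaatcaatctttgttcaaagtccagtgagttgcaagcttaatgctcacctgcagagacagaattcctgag
CXCL12: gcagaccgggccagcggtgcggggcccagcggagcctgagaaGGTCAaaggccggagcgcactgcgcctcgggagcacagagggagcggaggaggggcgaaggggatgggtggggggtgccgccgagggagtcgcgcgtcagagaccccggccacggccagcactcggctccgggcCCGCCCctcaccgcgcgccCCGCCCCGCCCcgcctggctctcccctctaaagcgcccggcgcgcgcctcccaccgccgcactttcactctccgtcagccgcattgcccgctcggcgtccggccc
CTSD: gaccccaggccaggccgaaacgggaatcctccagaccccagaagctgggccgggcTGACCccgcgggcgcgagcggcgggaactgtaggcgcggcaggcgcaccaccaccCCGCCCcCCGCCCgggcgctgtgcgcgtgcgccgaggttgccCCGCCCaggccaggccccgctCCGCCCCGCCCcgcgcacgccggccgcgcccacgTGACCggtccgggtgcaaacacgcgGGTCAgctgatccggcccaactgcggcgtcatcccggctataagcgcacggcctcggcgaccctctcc
They lie at chr7:16881934-16882233, chr1:145707351-145707650, chr10:44385048-44385347 and chr11:1763878-1764177, all on the minus strand.

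The response motifs of the AGR3 promoter begin at positions -225 and -54 from the start, that of PDZK1 at -68 and that of CXCL12 at -208. CTSD has them at -195, -43 and -18, together with 5 GC boxes, of which 2 share a base. CXCL12 has 3 GC boxes, of which 2 share a base. A promoter sequence was matched for 7 of the 8 genes. Of these 7, 5 held a response motif (CA12, PDZK1, CTSD, CXCL12 and AGR3) and 5 held a GC box (CA12, SIAH2, CTSD, CXCL12 and MLPH). Among 34943 RefSeq promoters of the same length, 37.4% held a response motif on either strand and 44.9% a GC box. The full element GGTCANNNTGACC (0.0572% of all promoters) and the forkhead core TGTTTAC (3.42%, both strands) were not among the letters of the 7 promoters. Such matches describe the letters only.

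Libraries held 434598 to 12140005 counts. Fulvestrant replicate 4 was the shallowest, with no count in 36.1% of all peaks and a TMM scaling factor of 1.56, against 0.957 to 1.05 in the other 23 libraries. A single count there is worth 1.57 CPM, so fulvestrant fold changes are also given without it. Starved vehicle replicate 3 was the next shallowest at 2422981. Replicates 3 and 4 differed from 1 and 2, a split that the labels do not name: 3060 of the 156745 tested peaks were higher and 6657 lower in 3 and 4, as were 1 and 9 of the 192 peaks at the 8 genes. Estradiol changes within each pair of replicates are therefore given for the peaks that rose. As a check of the cell line, all 5 luminal marker genes with a listed start (ESR1, FOXA1, GATA3, KRT8 and SPDEF) had a peak within 1 kb of it, at 17.2 to 39.2 CPM. The basal genes KRT5, TP63 and MYLK, PDGFRB of mesenchymal cells and PTPRC of blood cells had none. The exceptions were ACTA2 (26.4 CPM), on the basal list, and VIM (1.31 CPM), on the mesenchymal one.

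As a share of each library's own counts, before any scaling, the 211 peaks took 0.126% to 0.134% in the estradiol libraries and 0.110% to 0.118% in the starved vehicle libraries. The groups did not overlap. The share was 0.138% to 0.144% in complete vehicle. It was 0.128% to 0.139% in fulvestrant replicates 1 to 3, 0.119% in fulvestrant replicate 4, 0.136% to 0.142% with raloxifene and 0.131% to 0.142% with tamoxifen.

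After 1 h of estradiol, accessibility rose at 17 of the 192 tested peaks and fell at 0 (edgeR quasi-likelihood test, Benjamini-Hochberg adjusted p under 0.05 over all tested peaks). That is 8.85% of these peaks, where 0.813% of all 156745 tested peaks rose and 0.0223% fell. At an unadjusted p under 0.05, 51 were higher and 4 lower, which is 28.6% of the 192 beside 6% of all tested peaks, and DESeq2 called 16 higher and 0 lower. The rises lay at 7 of the 8 genes: 4 each at CA12 and SIAH2, 2 each at CTSD, ADCY9, AGR3 and MLPH, and 1 at PDZK1, with 0 at CXCL12. Their log2 fold changes ran from 0.80 to 2.4, with a median of 1.18. Over the 192 peaks the median was 0.18, against -0.0088 over all tested peaks. The genes were chosen as known estrogen targets, with earlier results on these data known, so the direction is not independent evidence.

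The rises were spread over starts, gene bodies and flanks. All 17 changes were above 0 in each of 19 alternatives, 10 passed the test within replicates 1 and 2 alone and 9 within replicates 3 and 4 alone. Of the 17, 6 lay inside the gene they were assigned to and 11 outside it, and 2 were within 1 kb of its start. A peak outside may still lie in a neighbouring gene. Few peaks lie near a start: of the tested ones, 2 of 13 rose within 1 kb of it, 6 of 68 elsewhere inside the assigned gene and 9 of 111 outside it. The median distance from the gene interval was 3.63 kb for the 17 and 3.70 kb for all 211, and the farthest was 36.0 kb away.

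**Figure D1:**
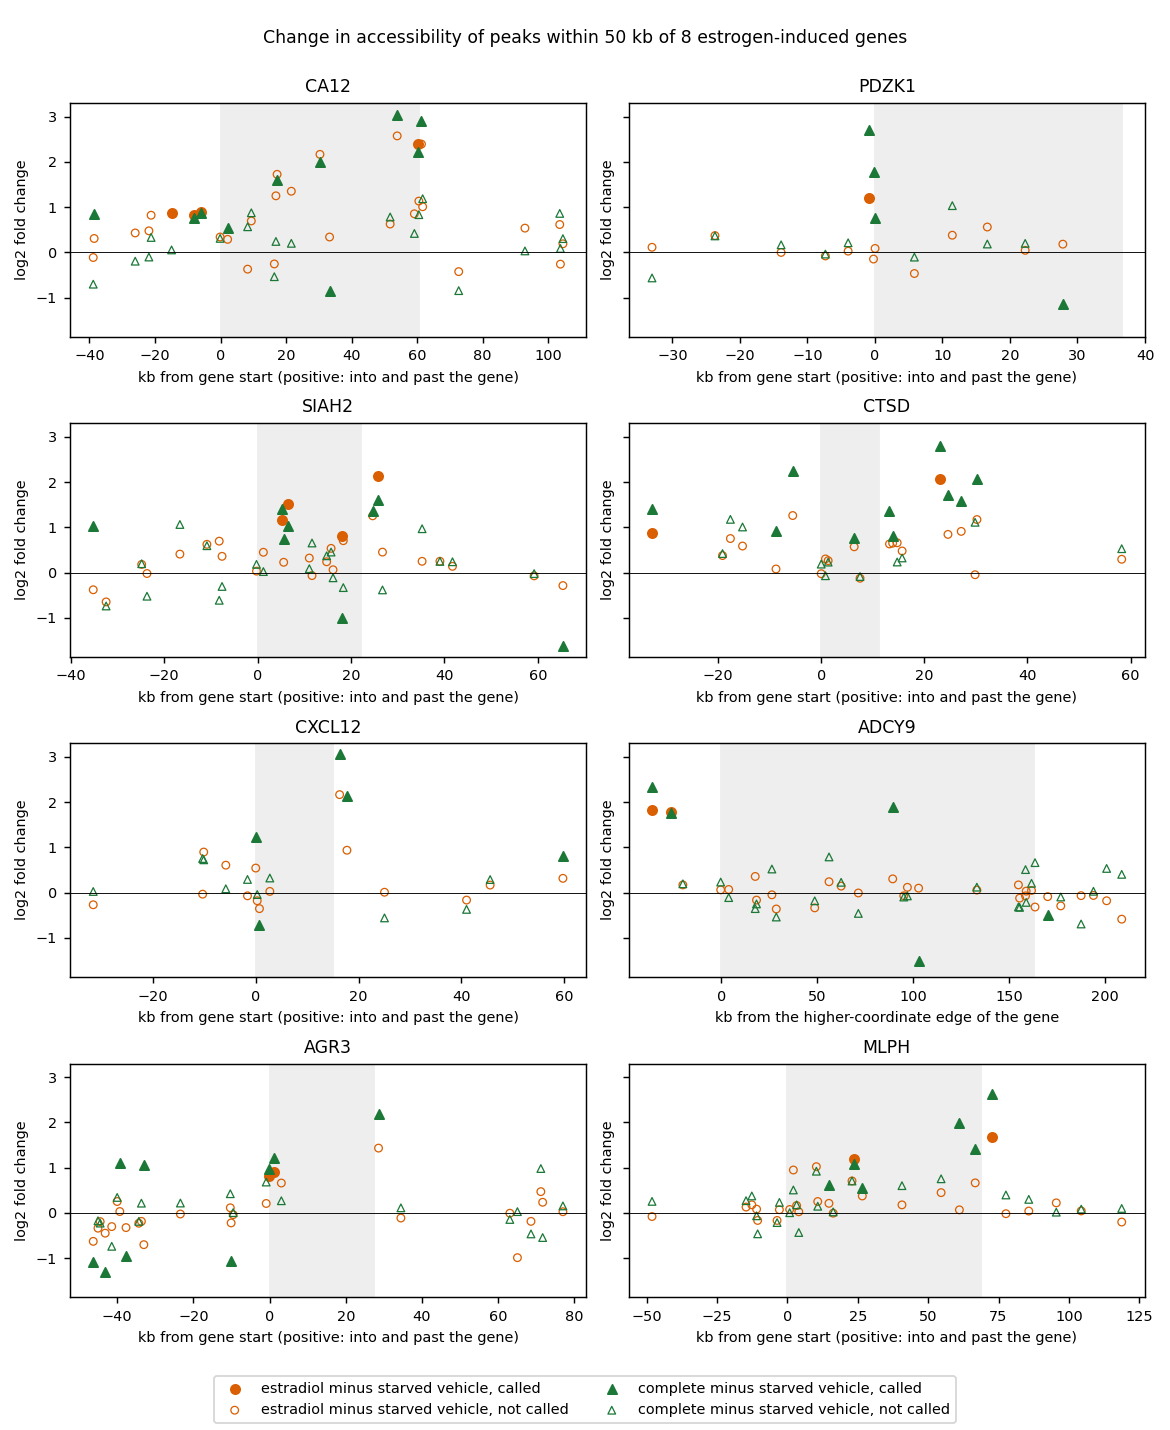
Log2 fold change (vertical axis) of each tested peak against its distance in kb from the gene's start (horizontal axis; for ADCY9, whose strand is not in the table used, from the higher-coordinate edge). Circles are estradiol minus starved vehicle and triangles complete vehicle minus starved vehicle, filled where the adjusted p is under 0.05, and grey marks the gene. The 17 filled circles all lie above 0, and CTSD has only filled triangles above 0, 10 in all.

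CA12 encodes carbonic anhydrase XII, a membrane enzyme that turns carbon dioxide into bicarbonate. Its peak of smallest p for estradiol lay 6.08 kb upstream of the gene (chromosome 15, 63387820 to 63388030) and held 27.3, 25.8, 26.2 and 23.9 CPM in the estradiol libraries, against 16.4, 13.4, 13.2 and 12.7 CPM in the starved vehicle libraries. Every estradiol library was above every starved vehicle library. The log2 fold change was 0.88 (SE 0.132, 1.85-fold, adjusted p = 1.55e-06), with 0.83 within replicates 1 and 2 and 0.99 within replicates 3 and 4. Complete vehicle libraries held 25.8, 25.0, 25.3 and 26.3 CPM, and estradiol minus complete vehicle was 0.014 (95% interval -0.21 to 0.24, adjusted p = 0.957). Hormone-treated starved cells and untreated cells in complete medium overlapped at this site.

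The other 3 CA12 peaks that rose are named after their values were seen. A peak inside the far end of the gene (63321470 to 63321936) had 1.38, 5.12, 4.59 and 4.11 CPM with estradiol, against 0.461, 1.49, 1.20 and 0.273 CPM in starved vehicle. Its log2 fold change was the highest of the 17 at 2.4 (SE 0.405, adjusted p = 3.17e-05), although the lowest estradiol library lay within the starved vehicle range. It was 1.81 within replicates 1 and 2, where the call was lost and it was not the highest of the 17, and 3.26 within replicates 3 and 4. The peak 8.23 kb upstream (63389932 to 63390218) had 7.26, 7.99, 8.76 and 11.3 CPM with estradiol, against 4.26, 5.35, 6.82 and 4.73 CPM in starved vehicle (log2 fold change 0.83, SE 0.205, adjusted p = 0.0182). It lost its call in 6 of 19 alternatives, among them leaving out starved vehicle replicate 1 or 4 or estradiol replicate 3 or 4, with log2 fold changes of 0.68 to 0.94 over the 19. Those bounds are its values within replicates 1 and 2 and within replicates 3 and 4, where it was not called either.

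The peak 14.9 kb upstream of CA12 (63396662 to 63396914) is set apart by its level in complete medium. It had 5.25, 6.29, 6.21 and 7.20 CPM with estradiol, against 3.57, 3.48, 4.81 and 2.91 CPM in starved vehicle (log2 fold change 0.86, SE 0.217, adjusted p = 0.021). Complete vehicle libraries had 3.89, 3.12, 3.29 and 3.94 CPM, near the starved vehicle level (log2 fold change 0.055, SE 0.250, adjusted p = 0.917) and below all 4 estradiol libraries (estradiol minus complete vehicle 0.81, SE 0.208, adjusted p = 0.00316). The estradiol call was the least stable of the 17. It was lost in 10 of 19 alternatives, with DESeq2 and when starved vehicle replicate 1, 2 or 4 or estradiol replicate 2, 3 or 4 was left out, while the log2 fold change stayed between 0.72, within replicates 1 and 2, and 1.02, within replicates 3 and 4, where it was not called in either.

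ADCY9 encodes adenylate cyclase 9, which makes the second messenger cyclic AMP. Both peaks that rose there lay beyond the higher-coordinate edge of the gene. The one 36.0 kb away (chromosome 16, 4152339 to 4152569) had 26.1, 30.4, 31.7 and 32.7 CPM with estradiol, against 8.07, 7.09, 11.2 and 9.28 CPM in starved vehicle. The lowest estradiol library held more than any starved vehicle library by a wide margin, and the call stood in all 19 alternatives, with log2 fold changes between 1.74, within replicates 3 and 4, and 1.9, within replicates 1 and 2. Complete vehicle libraries held 46.5, 41.2, 41.2 and 43.2 CPM, above all 4 estradiol libraries (estradiol minus complete vehicle -0.51, SE 0.114, adjusted p = 0.000769).

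The second ADCY9 peak (4142323 to 4142774, chosen after its values were seen) had 4.75, 4.37, 4.08 and 3.86 CPM with estradiol, against 0.922, 1.24, 1.60 and 1.37 CPM in starved vehicle (log2 fold change 1.78, SE 0.328, adjusted p = 0.000172). It was 2.07 within replicates 1 and 2, and 1.50 within replicates 3 and 4, where the call was lost. Here the complete vehicle libraries, at 4.76, 5.46, 3.40 and 3.21 CPM, overlapped the estradiol libraries (difference 0.016, 95% interval -0.46 to 0.49, adjusted p = 0.977). The peak nearest to that edge of the gene, 0.237 kb away (4116562 to 4116796), also named after its values were seen, had 6.51 to 11.5 CPM with estradiol and 6.45 to 11.2 CPM in starved vehicle, which overlapped.

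SIAH2 encodes an E3 ubiquitin ligase that marks proteins for degradation. Its peak of smallest p, inside the gene 6.57 kb from the start (chromosome 3, 150756496 to 150756701), had 26.5, 25.7, 30.3 and 26.5 CPM with estradiol, against 8.99, 9.32, 10.4 and 10.2 CPM in starved vehicle. Both groups were tight and far apart (log2 fold change 1.51, SE 0.139, 2.84-fold, adjusted p = 1.9e-13), with 1.51 within replicates 1 and 2 and 1.49 within replicates 3 and 4. Complete vehicle libraries lay between them, at 17.9, 17.0, 22.2 and 21.6 CPM (estradiol minus complete vehicle 0.47, SE 0.117, adjusted p = 0.00197). A peak 5.18 kb from the start (150757873 to 150758108) rose by 1.16 on the log2 scale (SE 0.229, adjusted p = 0.000706), to 6.46 to 7.78 CPM against 2.42 to 4.41 CPM in starved vehicle. That change was 1.47 within replicates 1 and 2, and 0.85 within replicates 3 and 4, where the call was lost.

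Past the far end of SIAH2, the peak at 150737355 to 150737628 had 10.8, 11.3, 9.86 and 11.1 CPM with estradiol, against 2.54, 3.11, 2.00 and 1.91 CPM in starved vehicle (log2 fold change 2.14, SE 0.220, 4.40-fold, adjusted p = 1.26e-11), with 1.97 within replicates 1 and 2 and 2.42 within replicates 3 and 4. Near the far end inside the gene, the peak at 150744960 to 150745360 ran in opposite directions with hormone and with medium. It had 9.13, 13.1, 13.0 and 8.87 CPM with estradiol, 2.70, 3.38, 3.81 and 2.77 CPM in complete vehicle and 5.30, 6.71, 4.81 and 7.64 CPM in starved vehicle. None of these 3 groups overlapped. Estradiol minus starved vehicle was 0.80 (SE 0.173, adjusted p = 0.00289), complete minus starved vehicle was -1.02 (SE 0.232, adjusted p = 0.000678), and estradiol minus complete vehicle was 1.82 (SE 0.197, adjusted p = 2.36e-11). These last 3 SIAH2 peaks are named after their values were seen. The estradiol call at 150744960 was lost when starved vehicle replicate 1 or estradiol replicate 3 was left out and within replicates 3 and 4, where the log2 fold change was 0.68, against 0.91 within replicates 1 and 2. Over its 19 alternatives it ran from 0.68 to 0.95.

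CTSD encodes cathepsin D, an aspartic protease of lysosomes. Its peak of smallest p was a strongly open site 32.8 kb upstream (chromosome 11, 1796589 to 1796933), with 53.4, 45.8, 54.1 and 60.6 CPM with estradiol, against 34.1, 29.7, 26.9 and 24.6 CPM in starved vehicle (log2 fold change 0.88, SE 0.121, adjusted p = 3.92e-07). It was 0.63 within replicates 1 and 2 and 1.19 within replicates 3 and 4. Complete vehicle libraries, at 85.4, 69.9, 78.7 and 73.7 CPM, were above both, and estradiol minus complete vehicle was -0.53 (SE 0.102, adjusted p = 8.22e-05). The second peak that rose, 23.0 kb from the start past the far end (1740764 to 1741035, named after its values were seen), showed the same order with 1.96 to 2.75 CPM with estradiol, 3.29 to 4.11 CPM in complete vehicle and 0.364 to 0.802 CPM in starved vehicle. Its log2 fold change for estradiol was 2.07 (SE 0.435, adjusted p = 0.00178), and the call was lost without starved vehicle replicate 4 and within either pair of replicates (1.96 in 1 and 2, 2.27 in 3 and 4, and 1.84 to 2.30 over the 19 alternatives). Of the 25 CTSD peaks, 11 lie within the neighbouring gene IFITM10, which cannot be told apart from CTSD by position alone. The peak that rose at 1740764 is among these 11.

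PDZK1 encodes a scaffold protein whose PDZ domains hold membrane transporters in place. A peak 0.939 kb upstream of its start (chromosome 1, 145708239 to 145708439) had 2.63, 3.52, 5.10 and 3.99 CPM with estradiol, against 1.84, 0.995, 2.00 and 2.00 CPM in starved vehicle. Every estradiol library was above every starved vehicle library (log2 fold change 1.21, SE 0.319, adjusted p = 0.0373), but the call was lost in 9 of 19 alternatives. They include leaving out starved vehicle replicate 1, 2 or 4, with log2 fold changes of 1.26, 1.01 and 1.37, and estradiol replicate 2, 3 or 4, with 1.26, 1.00 and 1.20. Fits within replicates 1 and 2 (1.11) and within replicates 3 and 4 (1.22) also lost it. Complete vehicle libraries held 9.84, 8.71, 12.7 and 13.1 CPM, far above both starved groups (complete minus starved vehicle 2.70, SE 0.257, adjusted p = 8.06e-14; estradiol minus complete vehicle -1.49, SE 0.200, adjusted p = 1.81e-08). PDZK1 has a pseudogene copy on the same chromosome (PDZK1P1, 147993862 to 148014956), and how reads that match both were counted is not given in the sources used here, so the counts at PDZK1 are uncertain.

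MLPH encodes melanophilin, an adaptor that ties a small GTPase to a myosin motor in the transport of pigment granules. The peak 3.82 kb past its far end (chromosome 2, 237559017 to 237559269) had 11.9, 13.1, 17.5 and 18.5 CPM with estradiol, against 3.69, 5.10, 5.21 and 5.37 CPM in starved vehicle (3.19-fold, adjusted p = 7.63e-10). The log2 fold change was 1.52 within replicates 1 and 2 and 1.75 within replicates 3 and 4. Complete vehicle libraries, at 33.5, 29.0, 28.3 and 28.2 CPM, were again above both (estradiol minus complete vehicle -0.96, SE 0.129, adjusted p = 2.25e-08). Inside the gene, 23.7 kb from the start, the peak at 237509955 to 237510276 had 9.76, 11.8, 13.9 and 13.1 CPM with estradiol and 11.4, 9.75, 12.3 and 12.1 CPM in complete vehicle, against 3.11, 7.21, 6.01 and 5.73 CPM in starved vehicle. There the estradiol and complete vehicle libraries overlapped, and both groups were above starved vehicle (log2 fold changes 1.18, SE 0.188, adjusted p = 7.17e-06, and 1.08, SE 0.194, adjusted p = 1.45e-05). The estradiol change was 1.10 within replicates 1 and 2 and 1.23 within replicates 3 and 4. Another MLPH peak inside the gene (237547370 to 237547607) passed the test between media and not with estradiol, with 4.63, 5.33, 5.78 and 5.66 CPM with estradiol, 23.7, 14.9, 21.2 and 21.6 CPM in complete vehicle and 4.61, 5.47, 3.21 and 5.82 CPM in starved vehicle. Estradiol minus starved vehicle was 0.065 (95% interval -0.40 to 0.53, adjusted p = 1), and complete minus starved vehicle was 1.99 (SE 0.180, adjusted p = 9.68e-15). The last 2 peaks are named after their values were seen.

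AGR3 belongs to the anterior gradient family, relatives of protein disulfide isomerases that help proteins fold in the endoplasmic reticulum. Of the 7 peaks that overlap a promoter window at 6 of the genes, the one at AGR3 rose with estradiol and the other 6 did not pass the test. The AGR3 peak (chromosome 7, 16881925 to 16882149) overlaps the promoter printed above and had 9.38, 7.46, 9.18 and 8.10 CPM with estradiol, against 4.38, 5.59, 4.01 and 4.82 CPM in starved vehicle (log2 fold change 0.82, SE 0.198, adjusted p = 0.0127). Complete vehicle libraries held 10.3, 9.75, 8.44 and 9.20 CPM, above all starved vehicle libraries (log2 fold change 0.96, SE 0.198, adjusted p = 0.000159) and overlapping the estradiol libraries. The call for estradiol was lost without starved vehicle replicate 1 or 4 (log2 fold changes 0.77 and 0.82), without estradiol replicate 1 or 3 (0.78 and 0.77), and within either pair of replicates (0.75 and 0.91).

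The other AGR3 peak that rose lay 1.20 kb inside the gene (16880664 to 16880896). It had 15, 9.80, 16.1 and 14.4 CPM with estradiol, against 8.64, 5.84, 9.62 and 7.10 CPM in starved vehicle, groups that did not overlap (log2 fold change 0.90, SE 0.170, adjusted p = 0.000313). It was 0.75 within replicates 1 and 2, where the call was lost, and 1.02 within replicates 3 and 4. Over all 27 tested AGR3 peaks, these included, the median log2 fold change for estradiol was -0.041. Between media 5 of its peaks were higher and 4 lower in complete vehicle.

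CXCL12 encodes a chemokine that guides cells bearing the receptor CXCR4. It had 0 peaks that passed the test for estradiol in either direction. The CXCL12 peak of smallest p (chromosome 10, 44368680 to 44368880, 1.39 kb past its far end) had 24 counts in all 4 estradiol libraries together and 4 in the starved vehicle libraries (log2 fold change 2.17, SE 0.807, adjusted p = 0.426). By library this was 0.500, 0.639, 1.11 and 0.129 CPM against 0.115, 0.124, 0 and 0.182 CPM, which overlapped. Complete vehicle libraries had 1.30, 1.43, 0.926 and 1.31 CPM, from 41 counts, and were above all starved vehicle libraries (log2 fold change 3.07, SE 0.706, adjusted p = 0.000748). At counts this low the size of a fitted fold change depends on the fit, so only the order of the groups is read from it. That order is uncertain for starved vehicle replicate 3, where the count was 0. By a limit of 3 counts it could hold up to 1.20 CPM, which lies within the complete vehicle range.

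**Figure D2:**
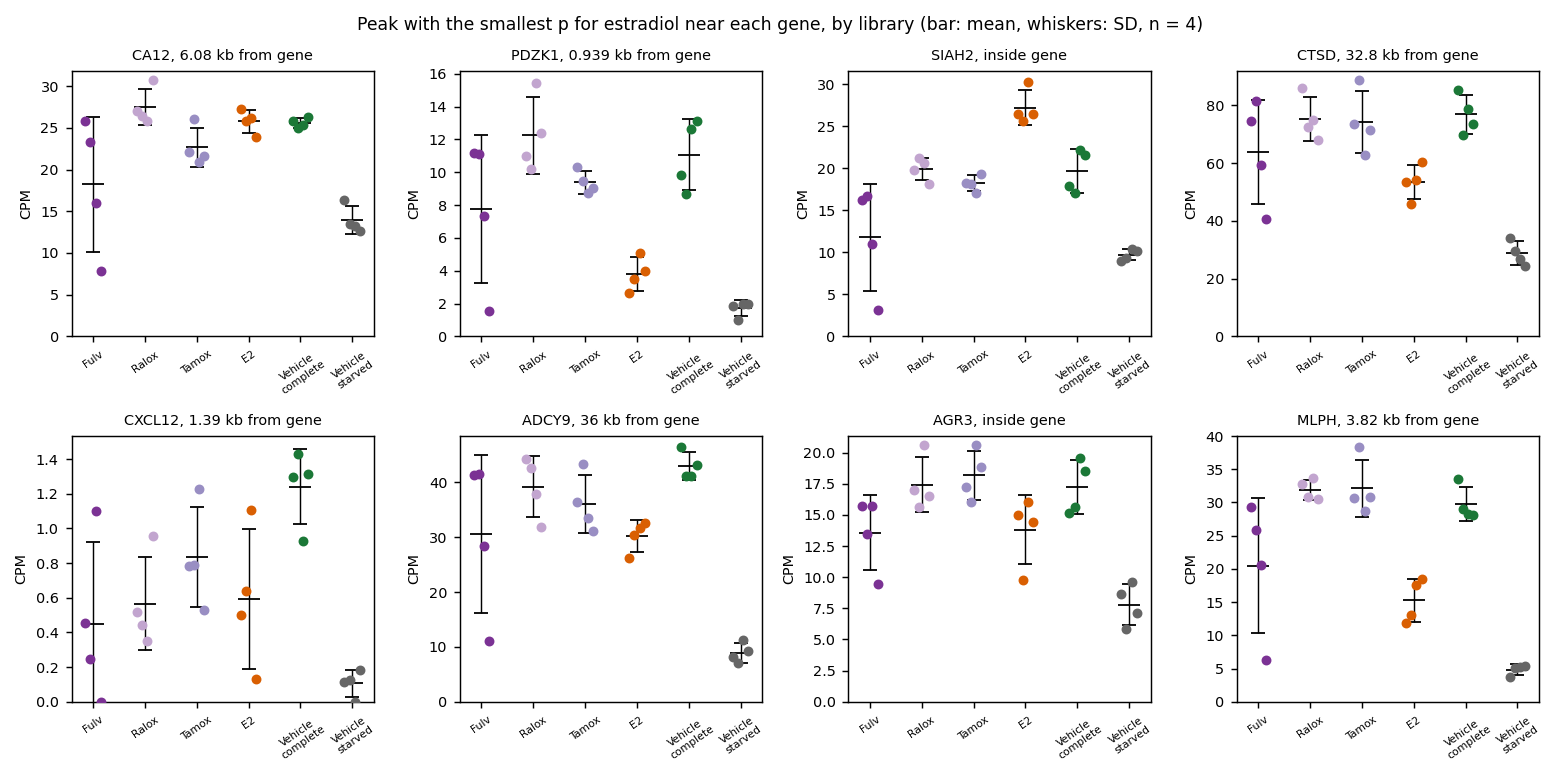
CPM in each library (points) of the peak with the smallest p for estradiol at each gene, with the mean and SD of 4 libraries. From left to right the groups are fulvestrant, raloxifene, tamoxifen, estradiol, complete vehicle and starved vehicle. Estradiol lies above starved vehicle without overlap at 7 genes. The peaks were chosen by their p in that same comparison, so this gap is not independent of the choice. Complete vehicle lies above estradiol at PDZK1, CTSD, ADCY9 and MLPH but below it at SIAH2.

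Comparing complete with starved vehicle asks how the whole culture condition, hormone included, shapes these sites. Accessibility was higher at 46 and lower at 11 of the 192 peaks in complete medium, which is 24% and 5.73%, where 7.93% and 9.91% of all tested peaks were higher and lower. The excess lay on the higher side only. CTSD led with 10 higher and 0 lower of 21 tested peaks, with a median log2 difference of 0.92, followed by CA12 with 9 and 1 of 30. SIAH2 had 6 and 2 of 28, MLPH 6 and 0 of 28, AGR3 5 and 4 of 27, CXCL12 4 and 1 of 15, PDZK1 3 and 1 of 13 and ADCY9 3 and 2 of 30. Within replicates 3 and 4 alone, 23 were higher and 4 lower. That fit holds fewer libraries, and the share of all tested peaks called in it is not given here.

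Among those 7 promoter peaks, the highest fold change between media was at PDZK1. Beside the peak 0.939 kb upstream, the peak at 145707496 to 145707728, which overlaps the printed promoter and is named after its values were seen, had 13.6, 11.8, 14.4 and 15.9 CPM in complete vehicle, against 3.80, 3.73, 4.41 and 4.46 CPM in starved vehicle (log2 fold change 1.77, SE 0.195, adjusted p = 2.5e-11). Estradiol libraries stayed at 1.50, 4.69, 4.42 and 3.60 CPM (estradiol minus starved vehicle -0.15, 95% interval -0.66 to 0.36). The peak over the start itself (145707279 to 145707479) had 6.81, 7.67, 7.61 and 8.03 CPM in complete vehicle, against 4.61, 3.73, 6.41 and 4.28 CPM in starved vehicle (log2 fold change 0.76, SE 0.216, adjusted p = 0.00728). Without the 2 vehicle libraries of conflicting labels that last difference was 0.72 and no longer passed.

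CXCL12 had neighbouring start peaks that moved in opposite directions. The peak over the start (44385024 to 44385225) had 7.79, 5.33, 8.64 and 6.42 CPM in complete vehicle, against 3.23, 1.99, 3.21 and 3.64 CPM in starved vehicle (log2 fold change 1.23, SE 0.249, adjusted p = 0.000112). The peak 0.694 kb inside the gene (44384303 to 44384503, named after its values were seen) had 4.76, 7.15, 7.51 and 4.52 CPM in complete vehicle, against 10.7, 9.45, 12.8 and 8.92 CPM in starved vehicle (log2 fold change -0.71, SE 0.186, adjusted p = 0.00324). Neither pair of groups overlapped. With estradiol these peaks had 3.38 to 5.40 CPM and 7.14 to 8.87 CPM, and neither passed against starved vehicle (adjusted p = 0.826 and 0.808).

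The remaining start peaks had smaller differences between the starved and complete cultures than the start peaks above. The SIAH2 start peak (150763235 to 150763545), the most open of these start peaks, had 92.7, 85.4, 92.1 and 87.2 CPM with estradiol, 95.8, 94.9, 107 and 98.1 CPM in complete vehicle and 90.8, 89.8, 64.1 and 93.3 CPM in starved vehicle. Estradiol minus starved vehicle was 0.031 (95% interval -0.15 to 0.21), and complete minus starved vehicle was 0.18 (95% interval -0.0033 to 0.36, adjusted p = 0.179). The CTSD start peak (1763837 to 1764040) had 8.84 to 11 CPM with estradiol, 9.67 to 13.2 CPM in complete vehicle and 8.02 to 10.9 CPM in starved vehicle, all overlapping. At CA12 (63381867 to 63382087) the ranges were 13.3 to 19.2, 12 to 18.2 and 10.0 to 14.6 CPM in the same order. There estradiol minus starved vehicle was 0.34 (95% interval 0.033 to 0.65, adjusted p = 0.726), and complete minus starved vehicle was 0.31 (adjusted p = 0.176). At the MLPH peak 0.776 kb past the start (237487071 to 237487301) the ranges were 16.2 to 19.8, 15.9 to 17.4 and 15.6 to 16.8 CPM. None of these passed the test in either comparison.

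Setting estradiol-treated starved cells against complete vehicle shows how far 1 h of hormone left these sites from the level in complete medium. It shares the estradiol libraries with the first comparison and the complete vehicle libraries with the second, so the comparisons are not independent. Accessibility was higher with estradiol at 14 (7.29%) and lower at 22 (11.5%) of the 192 peaks, where 9.39% of all tested peaks were higher and 7.24% lower. SIAH2 had 8 higher and 1 lower and CA12 3 higher and 0 lower. CTSD had 0 higher and 6 lower, ADCY9 1 and 4, PDZK1 1 and 3, CXCL12 0 and 3, MLPH 0 and 3 and AGR3 1 and 2. Without estradiol replicate 1 the count of lower peaks was 13.

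Summing all peaks within 50 kb gives each gene 1 total per library, and the same sum was tested for 19693 coding genes. Estradiol raised the total of 3 genes, where 0.96% of all gene totals rose and 0.0203% fell. The CA12 total was 128, 142, 146 and 151 CPM with estradiol, against 93.9, 93.9, 115 and 97.6 CPM in starved vehicle (log2 fold change 0.55, SE 0.0651, adjusted p = 3.29e-08). The CTSD total was 161, 155, 171 and 180 CPM with estradiol, against 120, 116, 133 and 111 CPM in starved vehicle (0.51, SE 0.111, adjusted p = 0.0184). The SIAH2 total was 287, 302, 311 and 275 CPM with estradiol, against 240, 246, 209 and 248 CPM in starved vehicle (0.29, SE 0.0607, adjusted p = 0.00219). In all 3 genes no estradiol library fell within the starved vehicle range. The same held for MLPH and ADCY9, whose totals did not pass the test. The share of all gene totals that stood apart in this way is not given here.

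The CA12 total held its call in every alternative run, at 0.53 within replicates 1 and 2 and 0.56 within replicates 3 and 4. The CTSD call was lost without starved vehicle replicate 1, 2 or 4 (log2 fold changes 0.52, 0.51 and 0.47) or estradiol replicate 3 or 4 (0.49 and 0.48), though it passed within both pairs of replicates (0.42 and 0.60). The SIAH2 call was lost without estradiol replicate 3 (0.26) and within replicates 3 and 4 (0.31). The other 5 totals did not pass: MLPH changed by 0.19 (95% interval 0.069 to 0.32, adjusted p = 0.205), ADCY9 by 0.14 (0.017 to 0.27, adjusted p = 0.8), PDZK1 by 0.093 (-0.058 to 0.24), CXCL12 by 0.028 (-0.12 to 0.17) and AGR3 by -0.016 (-0.14 to 0.10). The MLPH total passed with plain total counts, with only the groups compared and without the 2 shallowest libraries.

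Between media the totals of 7 of the 8 genes were higher in complete vehicle, where 10.8% of all gene totals were higher and 7.77% lower. They ran from CTSD at 0.86 (SE 0.108, adjusted p = 2.97e-06), through PDZK1 at 0.49, CA12 at 0.47, MLPH at 0.42, CXCL12 at 0.25 and ADCY9 at 0.22, to SIAH2 at 0.20 (SE 0.0621, adjusted p = 0.0142). The exception was AGR3, at 0.095 (95% interval -0.025 to 0.22, adjusted p = 0.29). The calls of SIAH2, CXCL12 and ADCY9 were the weaker ones. SIAH2 lost its call without complete vehicle replicate 3 (0.17) or starved vehicle replicate 1 (0.20), CXCL12 without complete vehicle replicate 1 (0.20) or starved vehicle replicate 2 (0.22), and ADCY9 without complete vehicle replicate 1 (0.16) or starved vehicle replicate 1 or 4 (0.20 each). All 3 also lost it within replicates 3 and 4 and with DESeq2. The SIAH2 call was lost too without the 2 vehicle libraries of conflicting labels.

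With estradiol set against complete vehicle, 4 totals were lower, where 9.35% of all gene totals were, and 0 were higher, where 6.71% were. At an unadjusted p under 0.05 the counts were also 4 and 0, where 28.6% of all gene totals differed in either direction. PDZK1 differed by -0.40 (SE 0.0683, adjusted p = 1.31e-05), with 69.2, 71.6, 72.8 and 68.0 CPM with estradiol against 93.1, 90.1, 97.0 and 91.2 CPM in complete vehicle. CTSD differed by -0.35, MLPH by -0.23 and CXCL12 by -0.22 (adjusted p = 0.0143, 0.0037 and 0.0174). The CXCL12 libraries overlapped, with 64.2 to 78.7 CPM with estradiol and 75.3 to 86.2 CPM in complete vehicle. Its call was lost without complete vehicle replicate 1 or 4 (-0.17 and -0.21), without estradiol replicate 1, 2 or 4 (-0.17, -0.18 and -0.20) and with DESeq2. CTSD lost its call without complete vehicle replicate 1 (-0.28) or estradiol replicate 1 or 2 (-0.32 and -0.31), and MLPH without complete vehicle replicate 1 (-0.17). Within replicates 3 and 4 the calls of CTSD (-0.19), MLPH (-0.15) and CXCL12 (-0.041) were all lost. Without the 2 vehicle libraries of conflicting labels, CTSD and CXCL12 lost theirs as well. SIAH2 (0.092), CA12 (0.077), ADCY9 (-0.072) and AGR3 (-0.11) did not pass.

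**Figure D3:**
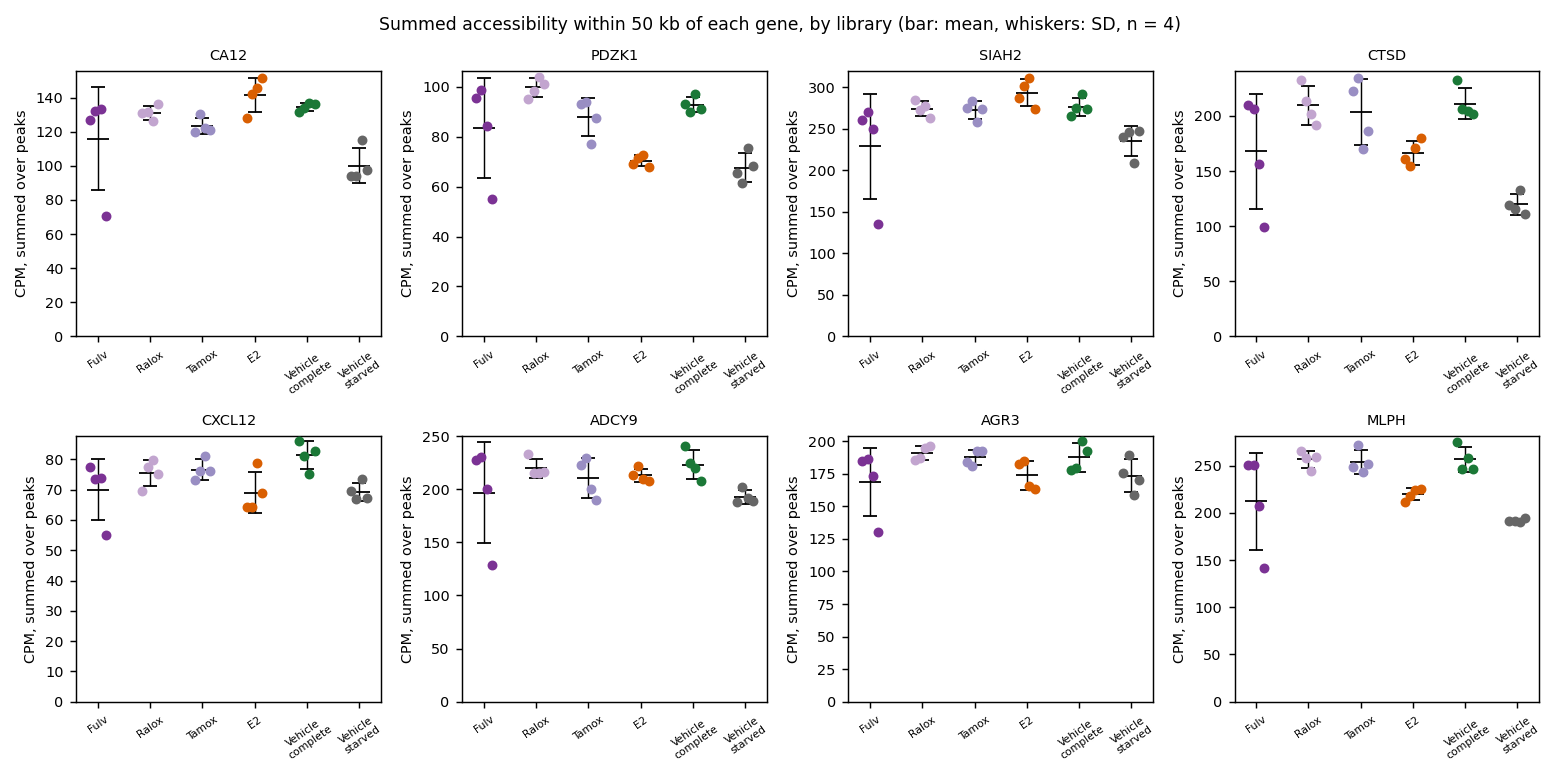
Sum of CPM over all peaks within 50 kb of each gene (vertical axis) in every library (points), with the mean and SD of 4 libraries. The groups run from fulvestrant at the left to starved vehicle at the right. Fulvestrant replicate 4 is the low point of its group in each panel, for example 70.7 CPM at CA12 where the other fulvestrant libraries held 127 to 133 CPM. CPM is divided by the TMM scaling factor, which was 1.56 in that library.

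By mean total, estradiol was the highest of the 6 groups at CA12 and SIAH2, raloxifene at PDZK1, AGR3 and MLPH, and complete vehicle at CTSD, CXCL12 and ADCY9. Most neighbours in these orders overlapped. Adjacent groups stood apart between tamoxifen and starved vehicle at SIAH2, between estradiol and starved vehicle at CTSD, and between tamoxifen and estradiol at MLPH. Starved vehicle had the lowest mean at CA12, PDZK1, CTSD, ADCY9 and MLPH, estradiol at CXCL12, and fulvestrant at SIAH2 and AGR3. Without replicate 4 the fulvestrant means were 260 ± 10.5 CPM at SIAH2 and 182 ± 7.01 CPM at AGR3 (SD, n = 3), above those of starved vehicle, at 236 ± 18.1 and 173 ± 12.7 CPM (SD, n = 4).

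The antagonists were compared with complete vehicle to see whether 1 h of receptor blockade in full medium closes these sites. No peak of the 192 passed the test with fulvestrant, raloxifene or tamoxifen, where 0% of all tested peaks rose and 0% fell with fulvestrant or tamoxifen, and 0.000638% rose and 0% fell with raloxifene. DESeq2 called 0 as well. At an unadjusted p under 0.05 the counts were 11 with fulvestrant (3 higher, 8 lower), 10 with raloxifene (3 and 7) and 12 with tamoxifen (2 and 10). Those are 5.73%, 5.21% and 6.25% of the 192, beside 3.96%, 3.81% and 4.13% of all tested peaks. Without fulvestrant replicate 4 the fulvestrant count was 12 of 196 tested, with 0 called.

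The 17 peaks that estradiol raised in starved cells were read in these comparisons, which share no library with the one that chose them. With fulvestrant 14 of the 17 had a log2 fold change below 0, with a median of -0.22. Without fulvestrant replicate 4 that was again 14, with a median of -0.19. With tamoxifen 14 were below 0 (median -0.14) and with raloxifene 6 (median 0.022). Over all tested peaks 51.5%, 49.6% and 50.0% were below 0 with fulvestrant, tamoxifen and raloxifene. Of the 192 tested peaks at the 8 genes, 118, 122 and 104 were below 0 in the same order, so a lean below 0 was not limited to the 17. The 3 comparisons share the complete vehicle libraries, and peaks at 1 gene are not independent, so these are descriptions.

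At SIAH2 the peak 6.57 kb inside the gene had 16.3, 16.8, 11 and 3.14 CPM with fulvestrant, against 17.9, 17.0, 22.2 and 21.6 CPM in complete vehicle. Every fulvestrant library was below every vehicle library, by little in replicates 1 and 2 (log2 fold change -0.41, SE 0.143, unadjusted p = 0.00495, adjusted p = 1). In fulvestrant replicate 4 a single count is worth 1.57 CPM, so its value here rests on very few counts. Without replicate 4 the log2 fold change was -0.38 (SE 0.133, adjusted p = 1). Raloxifene libraries held 19.9, 21.2, 20.6 and 18.2 CPM and tamoxifen libraries 18.3, 18.1, 17.1 and 19.4 CPM, which overlapped vehicle (0.022, SE 0.125, and -0.11, SE 0.130, both with adjusted p = 1).

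At CA12 the peak of smallest p over the antagonists, 0.85 kb past its far end (63320411 to 63320646), had 0.262, 0.315, 0.546 and 0.426 CPM with tamoxifen, against 1.51, 1.82, 1.13 and 2.04 CPM in complete vehicle (log2 fold change -1.98, SE 0.520, unadjusted p = 0.000272, adjusted p = 1). These groups did not overlap. With estradiol the same peak had 0.876, 1.71, 0.765 and 1.16 CPM, against 0.461, 0.124, 0 and 0.091 CPM in starved vehicle, and missed the threshold (log2 fold change 2.39, SE 0.653, adjusted p = 0.0511). Starved vehicle replicate 3, where the count was 0, could hold up to 1.20 CPM by the limit of 3 counts, and this limit covers counting error only.

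At AGR3 a weakly open peak 10.1 kb upstream (16891986 to 16892199) went the other way. It had 2.93, 3.33, 1.83 and 1.57 CPM with fulvestrant, 2.59, 2.88, 2.33 and 3.00 CPM with raloxifene and 2.62, 2.05, 0.955 and 2.87 CPM with tamoxifen, against 0.432, 1.30, 1.23 and 1.46 CPM in complete vehicle. The log2 fold changes were 1.36 (SE 0.386), 1.31 (SE 0.362) and 1.01 (SE 0.390), all with adjusted p = 1, and without fulvestrant replicate 4 the first was 1.37 (SE 0.392). The fulvestrant and raloxifene libraries lay above all vehicle libraries, and the tamoxifen libraries overlapped them. For fulvestrant replicate 4 this rests on a single count, which is worth 1.57 CPM there.

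At 3 further genes the peak of smallest p over the antagonists did not pass the test either. The CXCL12 peak 30.7 kb past its far end (44339317 to 44339577) had 13.1, 10.5, 12.1 and 10.5 CPM with raloxifene, against 18.4, 15.2, 14.0 and 15.5 CPM in complete vehicle (-0.44, SE 0.143, adjusted p = 1). The MLPH peak 14.7 kb upstream (237471586 to 237471793) had 7.59, 6.04, 7.14 and 6.28 CPM with fulvestrant, against 8.65, 9.62, 10.3 and 8.32 CPM in complete vehicle (-0.42, SE 0.189, adjusted p = 1), and without replicate 4 the difference was -0.41 (SE 0.188). Both pairs stood apart without passing the test, at MLPH with few counts in fulvestrant replicate 4. The CTSD peak 0.809 kb inside the gene (1763018 to 1763218) had 2.10 to 3.14 CPM with fulvestrant, 3.55 to 4.09 CPM with raloxifene and 2.87 to 3.79 CPM with tamoxifen, all within the 1.51 to 4.01 CPM of complete vehicle or overlapping it.

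Gene totals with the antagonists stayed close to complete vehicle, and 0 of the 8 passed the test with any of the 3 drugs, where 0% of all gene totals rose and 0% fell. DESeq2 also called 0, and at an unadjusted p under 0.05 the count was 1 with fulvestrant, 0 with raloxifene and 1 with tamoxifen. Over all gene totals the shares at that threshold were 2.31%, 1.96% and 1.99% in the same order. The 95% intervals are per gene, not adjusted for the number of genes, and apply to the summed count rather than to single peaks. For fulvestrant the widest was CTSD, at -0.14 (-0.35 to 0.070), and the lowest p belonged to MLPH, at -0.13 (-0.25 to -0.00089, adjusted p = 0.998). Without fulvestrant replicate 4 those values were -0.13 and -0.11, and CA12 was -0.048, beside -0.069 with it. With all libraries the 8 fulvestrant totals were below 0, and without replicate 4 PDZK1 was at 0.0098. With all libraries 68.4% of all gene totals were below 0, with a median of -0.033 over all genes. For tamoxifen the lowest p belonged to CA12, at -0.13 (-0.25 to -0.0035, adjusted p = 1), with 120, 130, 122 and 121 CPM with tamoxifen against 132, 134, 137 and 136 CPM in complete vehicle. These CA12 totals did not overlap. For raloxifene the 8 totals ran from -0.11 at CXCL12 to 0.096 at PDZK1.

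**Figure D4:**
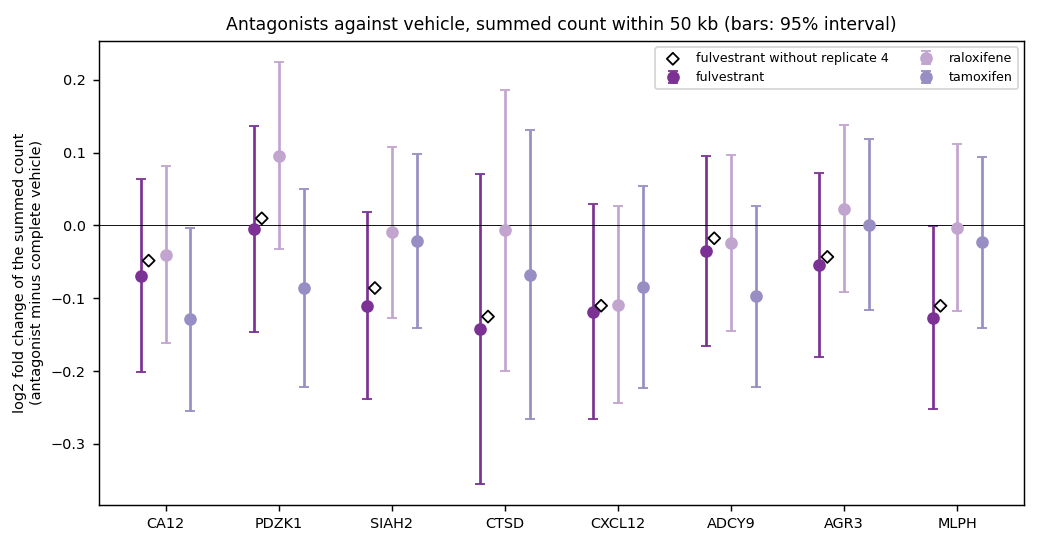
Log2 fold change of each gene's summed count with fulvestrant, raloxifene or tamoxifen against complete vehicle (vertical axis), with 95% intervals, and fulvestrant without replicate 4 as open diamonds. All fulvestrant values lie below 0 with all 4 libraries, from -0.0051 at PDZK1 to -0.14 at CTSD, and 0 of the 24 values with all libraries passed the test.

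The drugs were also compared directly, as 3 pairs at the same dose and time. Fulvestrant is a steroid derived from estradiol, while raloxifene and tamoxifen are non-steroidal compounds of different scaffolds. In no pair did a peak of the 192 pass the test, where fulvestrant was below raloxifene at 0.000638% of all tested peaks, above it at 0%, and the other pairs gave 0% in both directions. DESeq2 called 0 too, and the unadjusted counts were 12 for fulvestrant against raloxifene, 11 for fulvestrant against tamoxifen and 11 for raloxifene against tamoxifen. Those are 6.25%, 5.73% and 5.73% of the 192, beside 5.16%, 5.27% and 3.92% of all tested peaks. A p that misses the threshold does not show that the drugs act alike.

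For fulvestrant against raloxifene the peak of smallest p was the SIAH2 peak 6.57 kb inside the gene, described above (-0.44, 95% interval -0.72 to -0.15, adjusted p = 0.964; without fulvestrant replicate 4, -0.40, adjusted p = 0.99). For both fulvestrant and raloxifene against tamoxifen it was an ADCY9 peak inside the gene (3957694 to 3958032), with 7.13, 4.56, 5.86 and 3.14 CPM with fulvestrant, 7.04, 5.31, 5.35 and 7.37 CPM with raloxifene and 4.18, 4.57, 2.05 and 2.87 CPM with tamoxifen. Fulvestrant and tamoxifen overlapped (fulvestrant minus tamoxifen 0.81, 95% interval 0.29 to 1.34, adjusted p = 0.934, and 0.83 without fulvestrant replicate 4). Raloxifene and tamoxifen did not overlap (raloxifene minus tamoxifen 0.89, 95% interval 0.41 to 1.37, adjusted p = 1). Complete vehicle held 6.05, 6.11, 5.04 and 5.40 CPM, above all tamoxifen libraries (tamoxifen minus vehicle -0.75, SE 0.249, adjusted p = 1). Over gene totals the pair with the lowest p was raloxifene against tamoxifen at PDZK1, with 95.2, 98.3, 104 and 101 CPM with raloxifene against 93.0, 93.9, 76.9 and 87.6 CPM with tamoxifen (0.18, 95% interval 0.049 to 0.31, unadjusted p = 0.00794, adjusted p = 1).

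Other genes known to be induced by estrogen gave a yardstick. Over 35 of them, GREB1, PGR and XBP1 among them, 54 of 748 tested peaks (7.22%) rose with estradiol and 0 fell, at 21 of the genes, with a median log2 fold change of 0.15, beside 8.85% and 0.18 at the 8 genes. Between media 215 (28.7%) were higher and 34 (4.55%) lower in complete vehicle. For 10 genes of general cell upkeep, such as ACTB and GAPDH, 0 of 151 peaks changed with estradiol, and 13 (8.61%) were higher and 5 (3.31%) lower in complete vehicle. The lists were drawn up with earlier results on these data known.

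The gene whose total ran most like that of each member over the 24 libraries was sought among 9901 gene windows above the median total that share no peak with it, by Pearson r on log2(CPM + 1). It was GATA4 for MLPH (r = 0.987), ITPK1 for CTSD (0.969), PARD6B for SIAH2 (0.960), PFKFB3 for ADCY9 (0.960), RAB17 for PDZK1 (0.942), NRBP2 for AGR3 (0.931), MRPS23 for CA12 (0.915) and FZD8 for CXCL12 (0.868). RAB17 lies within 50 kb of MLPH, so its total shares peaks with that of MLPH. All libraries share 1 scaling, and fulvestrant replicate 4 carries part of the likeness. Without it r was 0.976, 0.961, 0.835, 0.887, 0.924, 0.841, 0.835 and 0.776 in the same order.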

How the data were processed

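Accessibility was measured by ATAC-seq in 24 T47D libraries. The authors deposited 1 table of whole-number counts per peak and library, not normalized. Per the submitters' processing notes, cutadapt 1.8.1, Bowtie2 2.4.4, SAMtools 1.9 and hg38 were used. For the peak caller and the counter, and for duplicates, multiply mapping reads and the Tn5 offset, the handling is not given in the sources used here, and each could change a count.

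From these counts, peaks passing filterByExpr (minimum count 10, minimum total 15) were scaled by TMM and tested with edgeR 4.0.16 (quasi-likelihood test, R 4.3.3), all 24 libraries in 1 fit with 1 coefficient per group. P-values were adjusted with the Benjamini-Hochberg method across the 156745 peaks tested, with a threshold of 0.05. CPM is the count scaled by the TMM-adjusted total. The SE is the log2 fold change divided by the square root of F, an approximation. Counts summed over peaks within 50 kb were tested likewise for 19693 genes. Procedures were tested on simulated data. Total counts of 434598 to 12140005 set the precision, and fulvestrant replicate 4 carries the least information.

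Peaks were named as follows: per gene, that with the smallest p for estradiol, for complete against starved vehicle and for any antagonist, and the peak nearest the start, plus that with the smallest p for each pair of antagonists. Others are said to be named after their values were seen. The genes, lists and rules were chosen with earlier results of these data known. Alternatives covered scaling, filters, the libraries in the fit, replicate block and set, DESeq2 1.42.0, leaving out libraries and a window of 10 kb. Chi-square per degree of freedom between replicates of a group was 1.74 to 4.53 over 36 pairs, so no library was counted as a duplicate. Promoter sequences come from RefSeq (GRCh38.p14), and peak sequences were not analysed here.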

Additional observations from a re-analysis of the deposited data

Results flagged for a closer look

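A library was singled out where its distance to the nearest of the other 3 of its group took up more of the group's range than Dixon's 95% limit allows. This was so in 9 of 174 groups of 4 values, and chance alone does so in about 1 group in 20.

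Fulvestrant replicate 4, the shallowest library, was low in 3 of the 9. Its CA12 total was 70.7 CPM, with the other fulvestrant libraries at 127 to 133 CPM. Its SIAH2 total was 135 CPM, with the others at 250 to 271 CPM. Its SIAH2 start peak (150763235) held 31.4 CPM, with the others at 90.1 to 95.4 CPM. At the same peak starved vehicle replicate 3, the next shallowest library, held 64.1 CPM, with the other starved vehicle libraries at 89.8 to 93.3 CPM. Before scaling, the 211 peaks took 0.119% of the counts of fulvestrant replicate 4, against 0.128% to 0.139% in the other fulvestrant libraries. Its TMM scaling factor was 1.56, and CPM is divided by that factor. The part of depth in these values was not tested.

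Complete vehicle replicate 1 was high at CTSD, with a total of 232 CPM where the others held 202 to 206 CPM, and at the MLPH peak past the far end (237559017), with 33.5 CPM where the others held 28.2 to 29.0 CPM. At that peak starved vehicle replicate 1 was low, at 3.69 CPM, with the others at 5.10 to 5.37 CPM. Starved vehicle replicate 2 was low at the PDZK1 peak 0.939 kb upstream (145708239), at 0.995 CPM, with the others at 1.84 to 2.00 CPM. Raloxifene replicate 1 had the high ADCY9 total of its group, 233 CPM, with the others at 215 to 216 CPM.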

How the results depend on the processing

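The 17 rises with estradiol became 11 within replicates 1 and 2, 9 within replicates 3 and 4 and 12 to 19 when 1 library was left out. The 46 peaks higher in complete than starved vehicle became 23 within replicates 3 and 4 and 38 to 52 with 1 library left out. The 11 lower ones became 7 within replicates 1 and 2, 4 within replicates 3 and 4, 6 among peaks above the median abundance, 6 with a window of 10 kb, 7 without the 2 vehicle libraries of conflicting labels, and 5 to 11 with 1 library left out, the 5 without starved vehicle replicate 2. For estradiol against complete vehicle, the 14 higher became 8 within replicates 3 and 4, 8 without the libraries of conflicting labels and 11 to 16 with 1 left out. The 22 lower became 7 within replicates 3 and 4, 14 without those libraries, 14 with 10 kb and 13 to 22 with 1 left out, the 13 without estradiol replicate 1. Fits within a pair of replicates hold fewer samples and the 10 kb window fewer peaks. For the rest the cause was not tested. The shares of all tested peaks called under these alternatives are not given here. A loss at these genes therefore cannot be told apart from a general one. The antagonist counts were 0 under every alternative run. Replicate numbers were not treated as pairs: over 60 pairs the correlation of deviations was -0.144 to 0.159 (median 0.0651), with 15 pairs over 0.1. By these correlations 15 of 24 libraries were closest to their own number, which comes from the data, not from the labels. The split of replicates 1 and 2 from 3 and 4 would also raise this count. It therefore cannot tell pairing by number apart from that split. With a replicate block the counts were 21 and 0 for estradiol, 50 and 13 between media, and 16 and 24 for estradiol against complete vehicle. Of 135 named peaks and gene totals by comparison, 34 passed the test, 19 of these in all alternatives, and 0 of the 34 changed sign. Depth limits the peaks near 1 CPM and every value of fulvestrant replicate 4.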
